A study of Mus musculus with 6 samples.

Results

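The vascular endothelial growth factor (VEGF) system was examined through 9 of the 15118 genes in a table of RNA sequencing values from embryonic mouse hearts. They were picked out by symbol: the ligand genes Vegfa, Vegfb and Vegfc, the receptor genes Kdr, Flt1 and Flt4, the co-receptor genes Nrp1 and Nrp2, and Adm, which encodes the vascular peptide adrenomedullin. Each symbol had 1 row. The 6 whole hearts came from Black-Swiss embryos at E12.5, in days after mating, and differed in the genotype of Hif1a, the gene of the oxygen-sensing part of the transcription factor HIF1. The 3 Hif1a mutant hearts, numbered 5, 8 and 10, carried a null and a floxed Hif1a allele, and the 3 control hearts, numbered 2, 5 and 9, a wild-type and a floxed allele. All 6 embryos also carried the Cre recombinase at NKX2-5 over a wild-type allele there. That gene is active in heart muscle and its progenitors, so cells that never express it keep an intact Hif1a allele in both genotypes, and mutant hearts carry the null allele in every cell.

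VEGF ligands are secreted proteins that act on receptor tyrosine kinases of endothelial cells, the cells that line vessels and, as endocardium, the heart chambers. Vegfa is a textbook HIF1 target made by heart muscle and other cells short of oxygen, and it acts through Kdr (VEGFR2), while Flt1 (VEGFR1) binds it tightly and limits what reaches Kdr. Vegfc acts through Flt4 (VEGFR3), best known from lymphatic vessels, and the neuropilins Nrp1 and Nrp2 bind VEGFs and semaphorins beside these kinases. Adrenomedullin signals through the receptor Calcrl with a Ramp partner and is also a known HIF1 target.

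The unit of expression is RPKM, reads per kilobase of constitutive exon after scaling for library depth. Log2 changes are mutant minus control on log2(RPKM + 1), a scale that understates the change of low genes. They were tested with limma over the 13080 genes that reached 1 RPKM in 3 or more hearts, with Benjamini-Hochberg adjustment and a threshold of 0.05. The low values imply between about 101100000 reads (mutant 8) and 158800000 reads (mutant 10) behind a library. With the exon lengths of the annotation this corresponds to roughly 244 to 538 reads per heart for Adm while the other members lay between 1215 reads (Vegfc) and 35191 reads (Nrp1). The authors' exon lengths may differ from these, which join all annotated exons of a gene. Where the constitutive exons are shorter, the read numbers given here are too high. On the first principal component, which held 45.3% of the variance, control 2 and mutant 8 were the extremes. The summed level of 28 rows of 5S ribosomal RNA ranked the hearts in the same order as this component. It was 31.3, 192 and 116 RPKM in mutants 5, 8 and 10, against 10.7, 31.2 and 71.9 RPKM in controls 2, 5 and 9. Whether a difference between RNA preparations lies behind this was not tested. Hif1a itself measured 75.7, 55.0 and 77.7 RPKM in mutants 5, 8 and 10, against 61.1, 46.4 and 46.4 RPKM in controls 2, 5 and 9 (limma adjusted p = 0.36). Its log2 change lay between 0.34 and 0.71 in 16 alternative settings, of which 1 passed the threshold (limma adjusted p = 0.013). The sources used here do not name the exons missing from the null and recombined alleles, so the Hif1a values do not check the deletion. The cardiomyocyte list summed to between 22280 and 24090 RPKM over its 16 genes in mutant hearts and to between 21090 and 23185 RPKM in control hearts, with none of its genes at 0. None of the 16 passed the threshold in limma, and 10 changes were positive and 6 negative. At an unadjusted p of 0.05, 3 were higher and 0 lower, against 644 of 13080 tested genes higher and 6.26% lower.

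The promoters of 5 members are shown because they hold the HIF1 targets Vegfa and Adm and the 3 receptors. They come from RefSeq (GRCm38.p6, the same assembly as mm10) and run from 250 bases before to 50 bases after a gene's start, 5′ to 3′ on the gene's strand. Capitals mark ACGTG and GCGTG, the core letters of the HIF1 response element, on either strand, so that a match on the other strand reads CACGT or CACGC.
Vegfa, chr17:46032328-46032627, minus strand: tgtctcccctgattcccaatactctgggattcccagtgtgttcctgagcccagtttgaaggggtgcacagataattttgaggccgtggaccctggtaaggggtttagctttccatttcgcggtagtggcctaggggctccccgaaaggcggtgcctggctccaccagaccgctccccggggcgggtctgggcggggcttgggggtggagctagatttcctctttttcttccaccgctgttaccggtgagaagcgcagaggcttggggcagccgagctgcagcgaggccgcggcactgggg
Adm, chr7:110627407-110627706, plus strand: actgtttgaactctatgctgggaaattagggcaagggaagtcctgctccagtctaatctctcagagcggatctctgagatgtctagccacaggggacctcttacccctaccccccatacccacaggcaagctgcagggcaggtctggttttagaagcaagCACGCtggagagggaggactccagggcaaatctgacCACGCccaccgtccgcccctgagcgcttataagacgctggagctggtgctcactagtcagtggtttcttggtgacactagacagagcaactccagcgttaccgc
Kdr, chr5:75978406-75978705, minus strand: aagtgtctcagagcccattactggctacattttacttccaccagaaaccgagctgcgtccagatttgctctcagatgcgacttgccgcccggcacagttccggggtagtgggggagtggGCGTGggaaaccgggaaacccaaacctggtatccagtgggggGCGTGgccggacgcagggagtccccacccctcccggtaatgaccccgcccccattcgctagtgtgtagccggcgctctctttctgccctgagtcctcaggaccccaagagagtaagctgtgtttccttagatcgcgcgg
Flt1, chr5:147725962-147726261, minus strand: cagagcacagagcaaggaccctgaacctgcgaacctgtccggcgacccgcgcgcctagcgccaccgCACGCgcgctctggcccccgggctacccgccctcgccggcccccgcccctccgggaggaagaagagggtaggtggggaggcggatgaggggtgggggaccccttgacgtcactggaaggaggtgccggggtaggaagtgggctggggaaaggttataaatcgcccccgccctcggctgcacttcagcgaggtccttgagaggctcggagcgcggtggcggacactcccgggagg
Flt4, chr11:49609429-49609728, plus strand: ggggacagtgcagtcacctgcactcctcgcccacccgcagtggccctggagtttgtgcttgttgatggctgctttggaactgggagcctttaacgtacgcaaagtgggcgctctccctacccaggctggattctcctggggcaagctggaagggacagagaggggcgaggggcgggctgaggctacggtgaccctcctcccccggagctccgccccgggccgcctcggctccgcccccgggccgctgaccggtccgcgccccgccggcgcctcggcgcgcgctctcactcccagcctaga
The Adm and Kdr windows each held 2 GCGTG matches, the Flt1 window held 1, and the Vegfa and Flt4 windows held neither core. Sequence more than 250 bases before a start was not searched, so the windows cannot show whether a core lies further upstream. A second RefSeq start of Vegfa, inside the gene at chr17:46025114-46025413, had 1 match to each core. Of 32851 windows of this length 43.8% held either core, so a match here sets no member apart. An ACGTG inside the palindrome CACGTG would match on both strands. No window of a member held CACGTG, against 7.15% of all windows.

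None of the 9 members passed the threshold. The 3 receptors were lower in the mutant hearts, with values that did not overlap those of the controls, while Vegfa and Vegfb overlapped and had slightly positive changes. In all, 0.818% of the 13080 tested genes passed (107 genes), 0.398% of them lower and 0.42% higher. At an unadjusted p of 0.05, 4 members (Vegfc, Kdr, Flt1 and Flt4) were lower and 0 were higher, against 6.26% of all tested genes lower at that p. In 5 members (those 4 and Nrp2) every mutant heart lay below every control heart, against 9.43% of all tested genes, and in 0 members every mutant heart lay above, against 7.6%. The median log2 change of the 9 members was −0.21, against −0.03 over all tested genes, and 7 of 9 changes were negative.

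**Figure D1:**
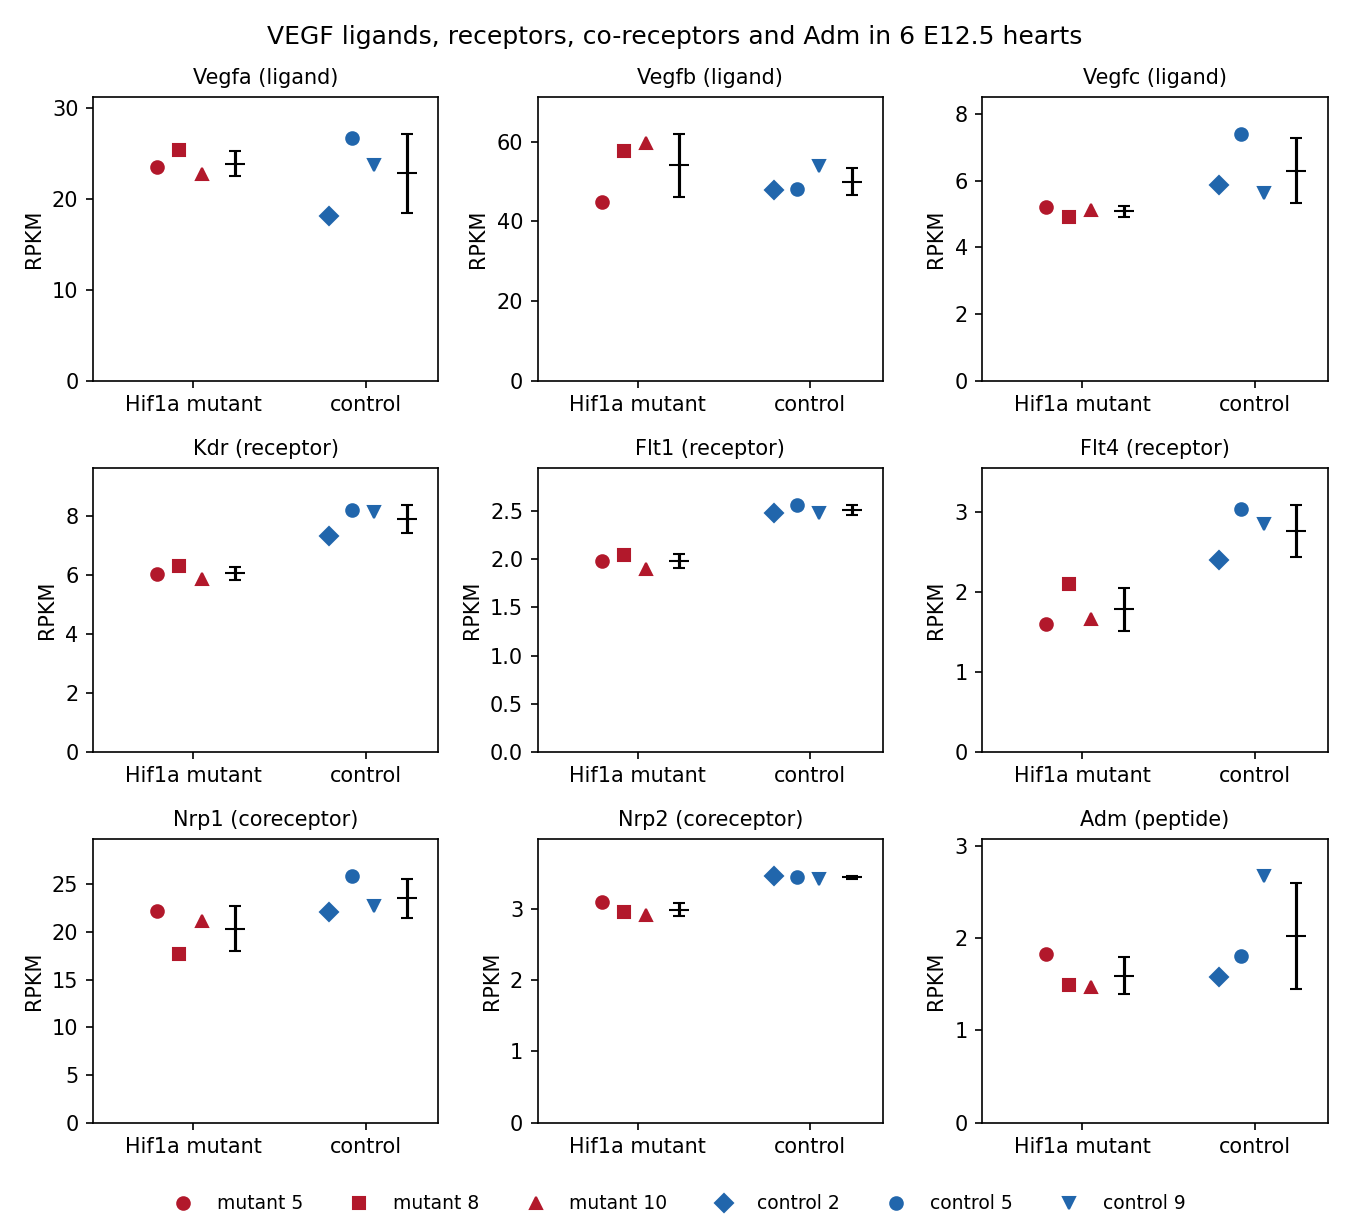
RPKM of the 9 genes in each heart, with mutant hearts in red at the left and control hearts in blue at the right of each panel, and the mean with its SD (n = 3) beside each group. In the Kdr panel mutant hearts sit between 5.85 and 6.29 RPKM, below the control hearts at 7.33 to 8.21 RPKM, and in the Vegfa panel the control hearts span 18.1 to 26.7 RPKM around the mutant values.

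Among the ligands Vegfa did not differ detectably between genotypes. Vegfa (ENSMUSG00000023951, mm10 chromosome 17, 46016993 to 46032369, minus strand, 8 exon blocks) measured 23.5, 25.3 and 22.7 RPKM in mutants 5, 8 and 10, against 18.1, 26.7 and 23.6 RPKM in controls 2, 5 and 9. The mutant hearts lay inside the range of the controls, in which control 2 was lowest. The means were 23.8 ± 1.35 RPKM in mutant and 22.8 ± 4.34 RPKM in control hearts (SD, n = 3 each). The log2 change was 0.08 ± 0.14 SE, with a 95% interval from −0.23 to 0.39 (limma adjusted p = 0.86). Its sign rested on control 2, without which the change was −0.073. It was also −0.12 in the 4 hearts left when the extremes of the first principal component, control 2 and mutant 8, were set aside.

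Most HIF1 targets of a separate list gave lower values in the same hearts. The list held neither Vegfa nor Adm and, like the other lists, was chosen with earlier results of these data known. Of its 43 tested genes 15 fell and 0 rose past the threshold, against 0.398% of all tested genes lower and 0.42% higher. The list's median log2 change was −0.42, with 37 negative and 6 positive. The list's summed level was between 1875 and 1927 RPKM in mutant hearts and between 3164 and 3657 RPKM in control hearts.

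Vegfb (ENSMUSG00000024962, chromosome 19, 6982473 to 6987651, minus strand), a ligand of Flt1, measured 44.9, 57.6 and 59.6 RPKM in mutants 5, 8 and 10, against 47.9, 48.1 and 53.8 RPKM in controls 2, 5 and 9. Mutant 5 was the lowest of all hearts and mutants 8 and 10 the highest, so the groups overlapped. The means were 54.0 ± 8.00 RPKM in mutant and 49.9 ± 3.34 RPKM in control hearts (SD, n = 3 each; log2 change 0.10 ± 0.12 SE, 95% interval −0.17 to 0.38, limma adjusted p = 0.78).

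Vegfc (ENSMUSG00000031520, chromosome 8, 54077606 to 54187096, plus strand), the ligand of Flt4, measured 5.22, 4.91 and 5.12 RPKM in mutants 5, 8 and 10, against 5.86, 7.41 and 5.63 RPKM in controls 2, 5 and 9. The groups did not overlap, with a gap that was small beside the distance of control 5 from the other controls. The mean was 5.08 ± 0.158 RPKM in mutant and 6.30 ± 0.971 RPKM in control hearts (SD, n = 3 each), so mutant hearts had 80.6% of the control level. The log2 change was −0.26 ± 0.11 SE (95% interval −0.51 to −0.0013, limma adjusted p = 0.44). Without control 5 it was −0.15.

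The receptor Kdr was lower in every mutant heart. Kdr (ENSMUSG00000062960, chromosome 5, 75932827 to 75978458, minus strand) measured 6.01, 6.29 and 5.85 RPKM in mutants 5, 8 and 10, against 7.33, 8.21 and 8.13 RPKM in controls 2, 5 and 9. The groups were separate, with control 2 nearest to the mutants. The means were 6.05 ± 0.222 RPKM in mutant and 7.89 ± 0.488 RPKM in control hearts (SD, n = 3 each), 76.7% of the control level. The log2 change was −0.33 ± 0.09 SE (95% interval −0.54 to −0.13, unadjusted p = 0.00552 and adjusted p = 0.20 in limma). By p it ranked 364 of 13080 tested genes.

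Flt1 (ENSMUSG00000029648, chromosome 5, 147561604 to 147726011, minus strand) measured 1.99, 2.05 and 1.90 RPKM in mutants 5, 8 and 10, against 2.48, 2.57 and 2.49 RPKM in controls 2, 5 and 9. Both groups were tight and did not overlap. The means were 1.98 ± 0.0728 RPKM in mutant and 2.51 ± 0.0494 RPKM in control hearts (SD, n = 3 each), 78.8% of the control level, with a log2 change of −0.24 ± 0.09 SE (95% interval −0.44 to −0.04, limma adjusted p = 0.36). The value covers the membrane and the soluble forms of the receptor together.

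Flt4 (ENSMUSG00000020357, chromosome 11, 49609263 to 49652739, plus strand) had the lowest log2 change of the 9 genes. It measured 1.59, 2.09 and 1.66 RPKM in mutants 5, 8 and 10, against 2.39, 3.03 and 2.85 RPKM in controls 2, 5 and 9. The groups were separate, with mutant 8 and control 2 nearest to each other. The means were 1.78 ± 0.269 RPKM in mutant and 2.76 ± 0.329 RPKM in control hearts (SD, n = 3 each), 64.6% of the control level. The log2 change was −0.44 ± 0.11 SE (95% interval −0.69 to −0.18, unadjusted p = 0.00415 and adjusted p = 0.17 in limma). It came nearest to the threshold in the 4 hearts without control 2 and mutant 8 (limma adjusted p = 0.065).

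Nrp1 (ENSMUSG00000025810, chromosome 8, 128358604 to 128503363, plus strand) measured 22.2, 17.7 and 21.1 RPKM in mutants 5, 8 and 10, against 22.1, 25.9 and 22.7 RPKM in controls 2, 5 and 9. Mutant 5 lay between controls 2 and 9, so the groups overlapped. The means were 20.4 ± 2.34 RPKM in mutant and 23.5 ± 2.06 RPKM in control hearts (SD, n = 3 each; log2 change −0.20 ± 0.11 SE, 95% interval −0.46 to 0.05, limma adjusted p = 0.54). The microRNA gene Mir1903 shares 80 of its 9785 exon bases on the same strand, and exons of the other members overlapped those of no other gene in the annotation.

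Nrp2 (ENSMUSG00000025969, chromosome 1, 62703285 to 62818695, plus strand) measured 3.10, 2.96 and 2.92 RPKM in mutants 5, 8 and 10, against 3.47, 3.45 and 3.43 RPKM in controls 2, 5 and 9. The groups were separate and both narrow. The means were 2.99 ± 0.0922 RPKM in mutant and 3.45 ± 0.0194 RPKM in control hearts (SD, n = 3 each; log2 change −0.16 ± 0.09 SE, 95% interval −0.36 to 0.04, limma adjusted p = 0.55). The moderated error of limma, which borrows spread from all genes, exceeded that of these 6 values.

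Adm (ENSMUSG00000030790, chromosome 7, 110627661 to 110629820, plus strand) was the lowest expressed of the 9 genes. It measured 1.83, 1.49 and 1.47 RPKM in mutants 5, 8 and 10, against 1.58, 1.81 and 2.68 RPKM in controls 2, 5 and 9. Control 9 stood above all other hearts, and mutant 5 lay above controls 2 and 5. The means were 1.60 ± 0.202 RPKM in mutant and 2.02 ± 0.577 RPKM in control hearts (SD, n = 3 each; log2 change −0.21 ± 0.14 SE, 95% interval −0.53 to 0.11, limma adjusted p = 0.62). Without control 9 the log2 change was −0.06.

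**Figure D2:**
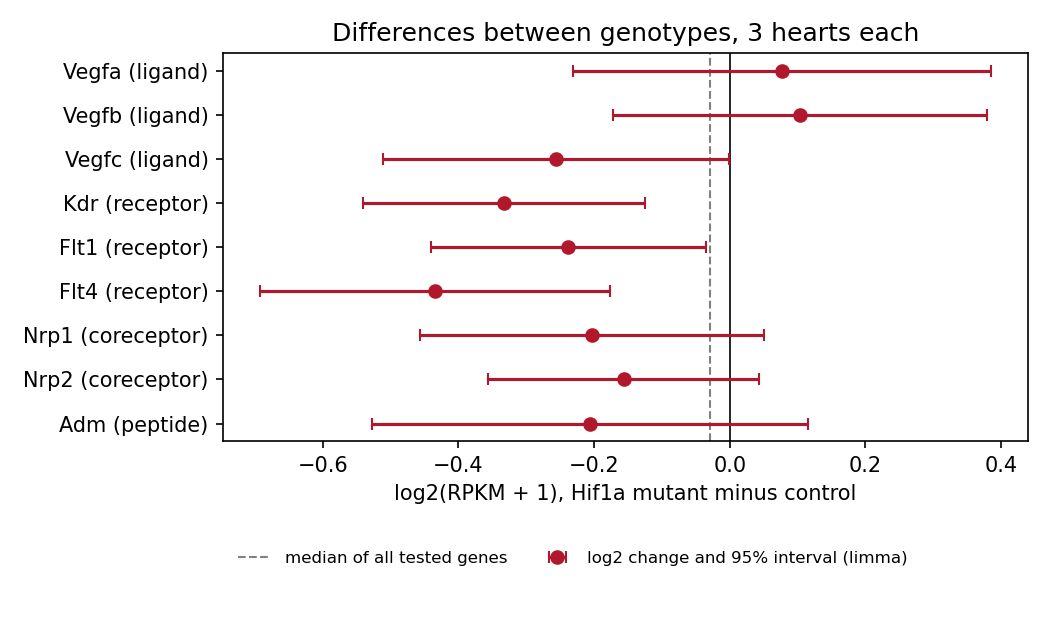
Log2 change on log2(RPKM + 1), mutant minus control, of the 9 genes with 95% intervals from limma (3 hearts a genotype). The dashed line is the median of all tested genes at −0.03. The intervals of Vegfc, Kdr, Flt1 and Flt4 lie below 0 before adjustment, and those of the other 5 genes include 0.

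By RPKM, which is per length and so allows genes to be set beside each other, Vegfb had the highest level in both genotypes. In the mutant hearts the order was Vegfb (54.0), Vegfa (23.8), Nrp1 (20.4), Kdr (6.05), Vegfc (5.08), Nrp2 (2.99), Flt1 (1.98), Flt4 (1.78) and Adm (1.60 RPKM). There only Flt1 with Flt4 and Flt4 with Adm had overlapping ranges as neighbours in the order. In the control hearts Nrp1 (23.5) stood above Vegfa (22.8) and Flt4 (2.76) above Flt1 (2.51 RPKM), with overlapping ranges in both pairs, and the ranges of Kdr with Vegfc and of Flt1 with Adm overlapped too.

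Ratios formed within a heart show how ligand and receptor stood to each other. The Vegfa to Kdr ratio of RPKM was 3.90, 4.03 and 3.88 in mutants 5, 8 and 10, against 2.47, 3.25 and 2.91 in controls 2, 5 and 9. All mutant hearts were above all control hearts, and the log2 ratio was 1.98 ± 0.0289 in mutant and 1.51 ± 0.198 in control hearts (SD, n = 3 each), a difference of 0.46. A two-sided exact permutation test gave p = 0.1, the smallest that 3 against 3 hearts allow. The ratio is formed from the Vegfa and Kdr values given above, so it is no separate result from the lower Kdr values. The log2 ratio of Flt1 to Kdr was −1.61 ± 0.0124 in mutant and −1.65 ± 0.0780 in control hearts (SD, n = 3 each), a difference of 0.04 (exact permutation p = 0.5). With 1 RPKM added to both genes the difference was 0.10 (exact permutation p = 0.2). With 3 against 3 hearts this exact test cannot go below 0.1, so it cannot show at a threshold of 0.05 whether these 2 receptors changed unequally.

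The receptors are transcripts of endothelial cells, and in whole hearts fewer cells of a type and less RNA per cell cannot be told apart. Of 24 tested endothelial and endocardial markers, a list without any of the 9 genes, none passed the threshold in limma, 8 were lower and 1 higher at an unadjusted p of 0.05, and 21 of 24 changes were negative (median −0.17). In 11 of them every mutant heart lay below every control heart. Over all tested genes 6.26% were lower at that p, 644 of 13080 were higher, and 9.43% had every mutant heart below every control heart. The summed level of the 25 listed markers was between 269 and 287 RPKM in mutant hearts and between 291 and 334 RPKM in control hearts, and none was at 0. The mean log2(RPKM + 1) of the tested markers was 3.10 ± 0.0685 in mutant and 3.31 ± 0.0872 in control hearts (SD, n = 3 each), a difference of −0.21.

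The genotype difference of each receptor relative to these markers depended on how the markers were summarised. Flt1 minus the marker mean was −1.58, −1.51 and −1.49 in mutants 5, 8 and 10, against −1.47, −1.58 and −1.46 in controls 2, 5 and 9, a difference of −0.03 (two-sided exact permutation p = 0.5). The groups overlapped, and without mutant 5 the difference was 0.0029. With the median of the markers in place of their mean it was −0.14 (exact permutation p = 0.1, the smallest possible). Kdr minus the marker mean was −0.35, −0.25 and −0.25 in mutant hearts 5, 8 and 10, against −0.21, −0.21 and −0.07 in controls 2, 5 and 9. These did not overlap, and the difference was −0.12 (exact permutation p = 0.1, the smallest possible). With the median of the markers the difference was −0.23 (exact permutation p = 0.1), and with a pseudocount of 0.1 it was −0.097 with p = 0.3 in the same exact test, so that the groups then overlapped. Flt4 minus the marker mean was −1.79, −1.49 and −1.62 in mutants 5, 8 and 10, against −1.50, −1.40 and −1.32 in controls 2, 5 and 9, with mutant 8 just above control 2 and a difference of −0.22 (exact permutation p = 0.2). It was −0.33 with the median of the markers and −0.072 with a pseudocount of 5. Against the marker mean, each difference was smaller than the gene's own log2 change of −0.24 (Flt1), −0.33 (Kdr) and −0.44 (Flt4). That follows by arithmetic from the difference of −0.21 in the marker mean itself and is no separate result about a receptor.

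**Figure D3:**
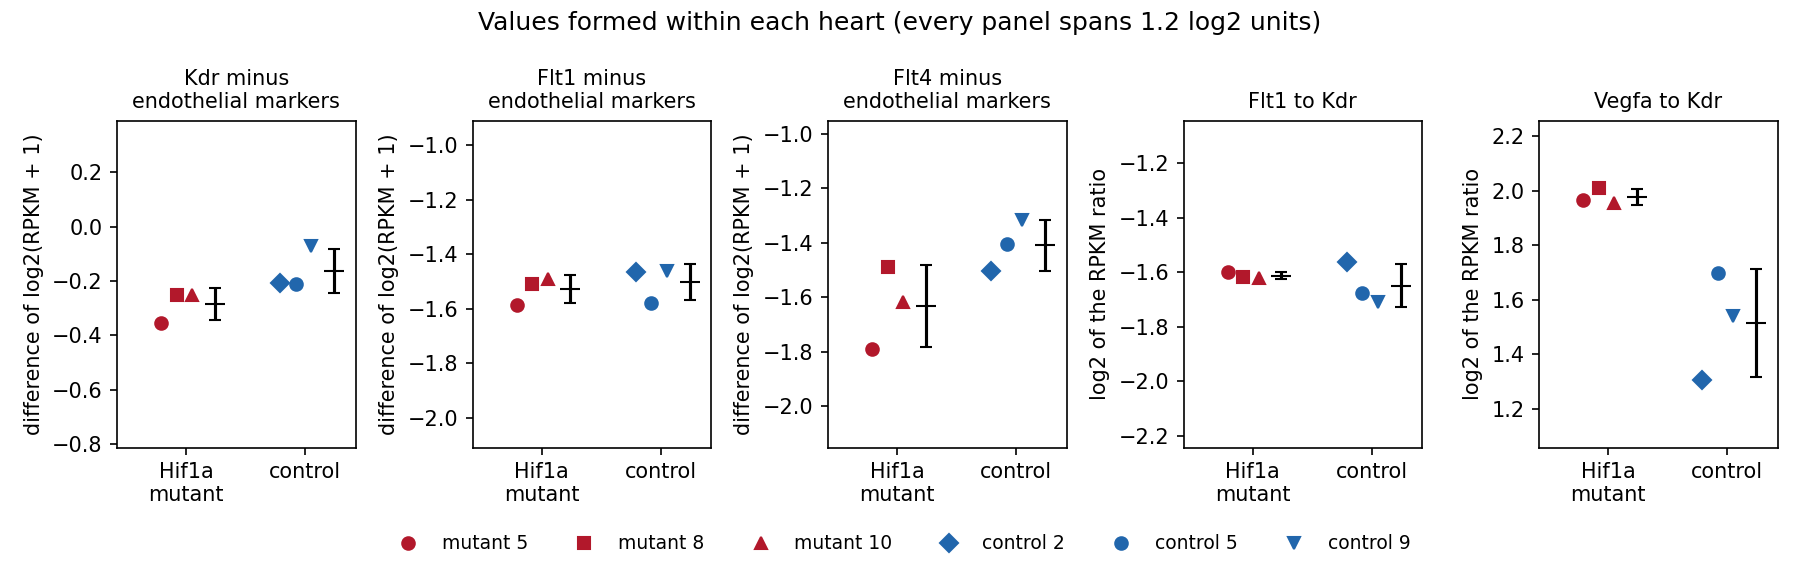
Values formed within each heart, mutant hearts in red at the left and control hearts in blue at the right, with the mean and SD (n = 3). The first 3 panels give log2(RPKM + 1) of Kdr, Flt1 and Flt4 minus the mean of 24 endothelial markers, and the last 2 give the log2 RPKM ratios of Flt1 to Kdr and Vegfa to Kdr. The genotypes separate in the Kdr panel and in the Vegfa to Kdr panel, where mutant hearts average 1.98 and control hearts 1.51.

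Macrophages also express neuropilins and Flt1, and their markers were lower in the mutant hearts. All 12 tested macrophage markers had negative changes (median −0.66), none past the threshold in limma. At an unadjusted p of 0.05, 10 were lower, against 6.26% of all tested genes. In 9 every mutant heart lay below every control heart, against 9.43% of all tested genes. The macrophage markers summed to between 15.1 and 36.8 RPKM in mutant hearts, lowest in mutant 10, and between 42.8 and 51.0 RPKM in control hearts, and none was at 0. Epicardial and mesenchymal markers summed to between 336 and 459 RPKM in mutant and between 522 and 565 RPKM in control hearts. Of their 15 changes 14 were negative and none passed the threshold, with 6 lower at an unadjusted p of 0.05 and 3 lower without overlap. Smooth muscle markers had 3 negative and 2 positive changes and erythroid markers 7 negative and 4 positive, none past the threshold. All 3 tested markers of liver, lung and neural tissue had positive changes (median 0.42), none past the threshold. At an unadjusted p of 0.05, 2 of them were higher, against 644 of 13080 tested genes. Their 6 listed genes summed to between 8.19 and 9.31 RPKM in mutant and between 5.32 and 9.09 RPKM in control hearts. The part of these cell types and tissues in the values of the 9 genes was not tested.

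Around the 9 genes, 8 lists of VEGF pathway genes held 101 further tested genes. Of these 2 fell past the threshold (Map2k1 and Aplnr) and 0 rose, against 0.818% of all tested genes called. At an unadjusted p of 0.05, 13 were lower and 2 higher, against 6.26% of all tested genes lower and 644 of 13080 higher. The median log2 change was −0.08, with 66 negative and 35 positive.

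Of 41 tested genes that carry the signal of VEGF receptors inside the cell, 1 passed, against 0.818% of all tested genes. Map2k1, the kinase MEK1 of the ERK cascade, measured 16.7, 15.7 and 17.9 RPKM in mutants 5, 8 and 10, against 23.7, 24.7 and 27.4 RPKM in controls 2, 5 and 9. The groups were well apart, and Map2k1 fell (log2 change −0.56 ± 0.10 SE, limma adjusted p = 0.037). It did not pass when any single heart was left out (limma adjusted p between 0.056 and 0.19) or after median centring (0.054), and its adjusted p reached 0.30 over all settings. Caveolin Cav1 measured 16.1, 9.52 and 7.46 RPKM in mutant hearts 5, 8 and 10, against 21.1, 18.2 and 18.7 RPKM in controls 2, 5 and 9 (limma adjusted p = 0.19, and 0.0075 without mutant 5, the mutant nearest to the controls). The adaptor Gab1 averaged 8.95 ± 0.321 RPKM in mutant and 11.3 ± 0.919 RPKM in control hearts (SD, n = 3 each; limma adjusted p = 0.26).

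Among 14 tested genes known to rise in endothelial cells given VEGF, the apelin pair had the lowest changes. Aplnr, the apelin receptor, measured 1.11, 0.993 and 0.490 RPKM in mutants 5, 8 and 10, against 2.39, 2.54 and 2.91 RPKM in controls 2, 5 and 9. It fell, with no overlap (log2 change −0.97 ± 0.14 SE, limma adjusted p = 0.018). Without control 2, 5 or 9 its adjusted p was 0.059, 0.098 and 0.055. Its ligand Apln measured 1.19, 0.909 and 0.419 RPKM in mutants 5, 8 and 10, against 1.84, 2.04 and 1.89 RPKM in controls 2, 5 and 9 (log2 change −0.69 ± 0.15 SE, limma adjusted p = 0.11, and 0.031 without mutant 5). In both genes mutant 10 was lowest, and mutants 8 and 10 lay under the 1 RPKM minimum that every control heart reached. Both genes were thus tested mainly through their control values. What lies behind the lower apelin values was not tested. Kcne3, a potassium channel subunit, averaged 4.06 ± 0.974 RPKM in mutant and 5.32 ± 0.343 RPKM in control hearts (SD, n = 3 each; limma adjusted p = 0.43).

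The other VEGF ligands were low. Pgf, placental growth factor, a ligand of Flt1, averaged 2.02 ± 0.0958 RPKM in mutant and 2.22 ± 0.0933 RPKM in control hearts (SD, n = 3 each; limma adjusted p = 0.75). Figf, the gene of VEGFD, averaged 1.46 ± 0.332 RPKM in mutant and 1.41 ± 0.0140 RPKM in control hearts (SD, n = 3 each; limma adjusted p = 0.96). Neither passed the threshold.

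None of 16 receptor partners and processing enzymes passed in limma (3 lower at an unadjusted p of 0.05, against 6.26% of all tested genes). The endothelial cadherin Cdh5, which binds Kdr at cell junctions, averaged 16.0 ± 1.40 RPKM in mutant and 19.5 ± 1.67 RPKM in control hearts, and the arterial ephrin Efnb2 averaged 4.08 ± 0.320 RPKM in mutant and 5.05 ± 0.322 RPKM in control hearts (SD, n = 3 each; limma adjusted p = 0.38 for each). The integrin Itga9 averaged 3.00 ± 0.366 RPKM in mutant and 3.79 ± 0.429 RPKM in control hearts (SD, n = 3 each; limma adjusted p = 0.44).

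None of 7 tested genes of the adrenomedullin system passed in limma (1 lower at an unadjusted p of 0.05, against 6.26% of all tested genes). Ramp2, the partner that turns Calcrl into an adrenomedullin receptor, averaged 24.4 ± 1.24 RPKM in mutant and 21.2 ± 1.32 RPKM in control hearts, with no overlap (SD, n = 3 each; log2 change 0.20, limma adjusted p = 0.47). Calcrl itself, named for its role, averaged 6.10 ± 1.60 RPKM in mutant and 6.86 ± 1.25 RPKM in control hearts (SD, n = 3 each; limma adjusted p = 0.77). The amidating enzyme Pam, needed to finish the peptide, averaged 109 ± 17.3 RPKM in mutant and 140 ± 27.0 RPKM in control hearts, and the peptidase Mme averaged 3.81 ± 0.218 RPKM in mutant and 5.54 ± 1.18 RPKM in control hearts (SD, n = 3 each; limma adjusted p = 0.45 and 0.27).

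Neuropilin partners, angiopoietins and Notch genes held no call in limma, with 1, 0 and 1 genes lower at an unadjusted p of 0.05 among 10, 3 and 10 tested. Over all tested genes 6.26% were lower at that p. Among semaphorins and plexins 9 of 10 changes were negative, with Sema3d at 4.10 ± 0.396 RPKM in mutant and 5.81 ± 1.41 RPKM in control hearts, Plxna2 at 2.14 ± 0.190 RPKM in mutant and 2.53 ± 0.0191 RPKM in control hearts, and Plxnd1 at 15.3 ± 2.60 RPKM in mutant and 18.0 ± 1.89 RPKM in control hearts (SD, n = 3 each; limma adjusted p = 0.34, 0.55 and 0.56). The angiopoietin receptor Tek averaged 16.0 ± 1.73 RPKM in mutant and 18.2 ± 1.53 RPKM in control hearts, its ligand Angpt1 6.32 ± 1.76 RPKM in mutant and 7.65 ± 1.98 RPKM in control hearts, and Tie1 14.1 ± 0.972 RPKM in mutant and 14.1 ± 1.45 RPKM in control hearts (SD, n = 3 each; limma adjusted p = 0.58, 0.69 and 0.98). Of the Notch genes Hey2, a repressor also active in compact myocardium, averaged 20.6 ± 1.86 RPKM in mutant and 26.4 ± 1.24 RPKM in control hearts with no overlap (SD, n = 3 each; limma adjusted p = 0.20). Nrarp averaged 1.26 ± 0.252 RPKM in mutant and 1.70 ± 0.255 RPKM in control hearts, and Rbpj 5.60 ± 0.665 RPKM in mutant and 6.60 ± 0.255 RPKM in control hearts (SD, n = 3 each; limma adjusted p = 0.47 and 0.50).

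**Figure D4:**
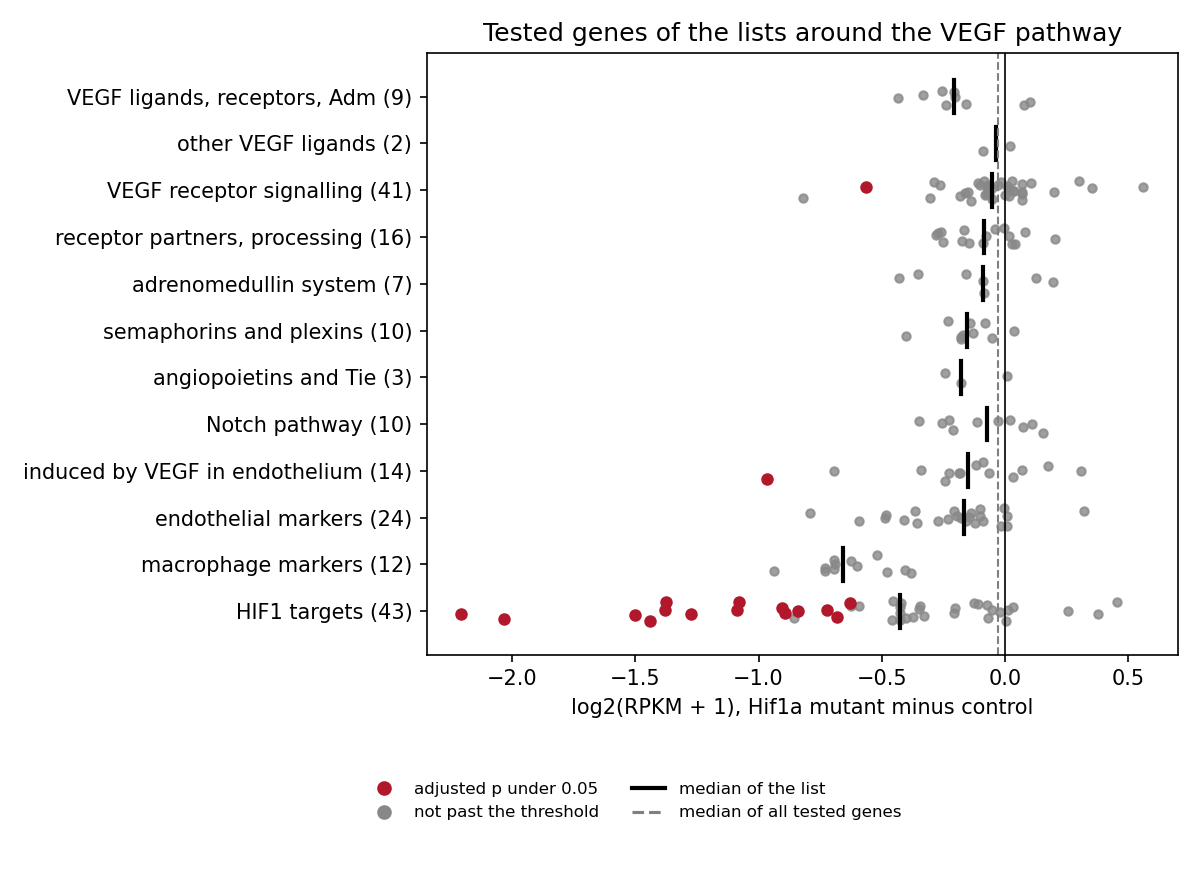
Log2 change on log2(RPKM + 1), mutant minus control, of every tested gene in each list (number of genes in brackets), with the list's median as a black bar and genes past an adjusted p of 0.05 in red. VEGF ligands, receptors and Adm lie between −0.44 and 0.10, the HIF1 targets reach −2.21, and the red points outside that list are Map2k1 and Aplnr. Vertical spread within a list has no meaning.

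Genes with the most similar profile over the 6 hearts were sought by the root mean square difference of log2(RPKM + 1) after centring each gene, a measure that also favours genes of similar amplitude. Nearest to Kdr were As3mt (0.032), Bcl6b (0.032) and Nid1 (0.034), an arsenite methyltransferase, a transcriptional repressor and the basement membrane protein nidogen. All 3 had lower values in every mutant heart than in any control heart. That follows from picking them for likeness to Kdr in these same hearts and is no separate result. Bcl6b averaged 2.43 ± 0.0721 RPKM in mutant and 3.28 ± 0.277 RPKM in control hearts (SD, n = 3 each; limma adjusted p = 0.24). Symbols of predicted genes, such as those ending in Rik, and clone names were left out of these searches and their ranks. Flt1 ranked 43 and Flt4 117 in nearness to Kdr, and Vegfa 7476. Nearest to Vegfa were Dlg4 (0.033), Bai2 (0.034) and Pex16 (0.041), each lowest in control 2, and nearest to Adm were Tusc1 (0.070), Orai3 (0.070) and Plaur (0.070), each highest in control 9. These shared extremes also follow from how the genes were picked.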

How the data were processed

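Total RNA of 6 whole hearts was sequenced. Per the submitters' processing notes, Trim Galore and TopHat2 were used with build mm10. The sources used here name neither the gene counter nor its annotation, nor whether strand was kept. For 15118 genes the authors deposited linear RPKM values and listed the constitutive exons behind them. The header names no unit. In genes with 1 exon, 85.0% to 94.7% of low values were whole multiples of a step within 0.1, against 19.2% to 20.1% (medians) for other steps, and the steps gave the implied reads.

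limma 3.58.1 in R 4.3.3 was fitted with a mean-variance trend to all 6 hearts, with no covariates and two-sided p-values. The fit was tested on simulated data. The members and gene lists were chosen with earlier results of these data known. The further genes named are every gene past the threshold and up to 3 with the smallest p in each pathway list, and the 3 most similar to Vegfa, Kdr and Adm. Ratios were tested by exact permutation (SciPy 1.17.1). Positions come from GENCODE M21 and promoters from RefSeq. The labels describe separate hearts and nothing about litters or batches, and p-values measure only the spread between these samples. Alternatives were median centring, testing all genes, a 5 RPKM minimum, limma with no trend or a robust prior, rescaling without haemoglobin genes, other pseudocounts (0.1 and 5), the median of the endothelial markers in place of their mean, 1 RPKM added within ratios, leaving out each heart, the 4 hearts with chromosome Y expression and leaving out control 2 and mutant 8 together (the extremes of the first principal component).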

Additional observations from a re-analysis of the deposited data

How the results depend on the processing

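No paired analysis was possible because the labels name no litters or pairs. The number 5, which occurs in both genotypes, is not said to mark a pair. Over 140 values of the 9 members under the alternative settings none passed the threshold, and 138 kept their direction. Both exceptions were Vegfa, at −0.12 without control 2 and mutant 8 and between −0.073 and 0.19 when each heart was left out. With a minimum of 5 RPKM, Flt1, Flt4, Nrp2 and Adm were not tested. Over all genes the count past the threshold was 54 in the 4 hearts with chromosome Y expression and between 45 and 198 when each heart was left out. Higher and lower calls were 55 and 52, against 57 and 34 after median centring and 54 and 81 after rescaling without haemoglobin genes. The count of other pathway genes was 1 after median centring and with a minimum of 5 RPKM, 0 in the hearts with chromosome Y expression and without control 2 and mutant 8, and between 0 and 3 when each heart was left out. Aplnr and Apln were not tested with the minimum of 5 RPKM. Flt1 minus the endothelial markers was −0.14 with the median of the markers, −0.051 with a pseudocount of 0.1, 0.016 with a pseudocount of 5 and between −0.064 and 0.0029 when each heart was left out. Kdr minus the markers was −0.23 with their median, −0.097 and −0.10 with pseudocounts of 0.1 and 5, and between −0.14 and −0.075 when each heart was left out. Flt4 minus the markers was −0.33 with their median, −0.33 and −0.072 with those pseudocounts, and between −0.29 and −0.14 when each heart was left out. The log2 ratio of Flt1 to Kdr differed by 0.10 with 1 RPKM added to both genes and by 0.0063 to 0.081 when each heart was left out. For Vegfa to Kdr the difference was 0.41 with 1 RPKM added and between 0.36 (without control 2) and 0.55 (without control 5) when each heart was left out. The direction of other named genes turned under some settings. Figf was −0.0061 and Tie1 −0.033 after rescaling without haemoglobin genes. Without control 2 and mutant 8, Tie1 was −0.11, Angpt1 0.080, Dlg4 −0.068, Bai2 −0.10 and Pex16 −0.10. Tie1 was −0.056 in the hearts with chromosome Y expression. With each heart left out Figf lay between −0.074 and 0.12, Tie1 between −0.054 and 0.081, Dlg4 between −0.028 and 0.20, Bai2 between −0.067 and 0.20 and Pex16 between −0.041 and 0.20. The cause of these shifts was not tested, although fits that leave out hearts have fewer samples.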
